A study of Gossypium hirsutum with 9 samples.

Results

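The genes described here were high in cultured cotton ovules on 50 mM glucose, lower on 150 mM and at about the same lower level on 300 mM. They were picked from the expression values themselves. A gene is a member if its ID starts with Gohir and its mean log2(FPKM + 0.5) was lower by at least 2 at 150 mM than at 50 mM. Its means at 150 and 300 mM also had to differ by less than 0.5, its mean FPKM at 50 mM had to be at least 2, and every library above 50 mM had to lie below every 50 mM library. FPKM is the number of reads of a gene per length and per library-size term, so it can be compared between genes. Of 75376 Gohir IDs, 303 met this rule (0.402%). The drop from 50 mM, the flat course above it and the separation of the groups are what the rule selected, so they are given as a description with no test.

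The ovules, from the strain TM-1 of upland cotton (Gossypium hirsutum), were cultured for 5 days on glucose at 50, 150 or 300 mM, and RNA sequencing was done on 3 libraries per concentration. The strain, the tissue and the culture time were the same in all 9 libraries. The libraries held 17803707 to 19140280 reads recovered from the deposited values. Replicate 1 at 300 mM was the lowest library of its group in most members, and the course from 150 to 300 mM is given with and without it. There was no osmotic control among the samples, so an effect of glucose as a sugar cannot be told apart from one of the osmolarity of the medium. The labels do not say whether the 3 libraries of a concentration came from separate cultures, and the spread given here may be in part technical.

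Glucose is both food and signal for plant cells. When sugar is short, plant cells turn on genes for recycling of cell constituents and for the use of other carbon sources, in part through the kinase SnRK1, and ample sugar turns such genes down through hexokinase and other sensors. The cotton fibre is a single elongated cell of the ovule's outer layer, and ovules in culture draw their carbon from the medium. The IDs could not be tied to names or functions (0 of the file IDs matched a RefSeq gene table of 99454 genes), so no member is given a role and the ovule label could not be checked against marker genes. In RNA from whole ovules, fewer cells of a type and less RNA per cell cannot be told apart.

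The members spanned a wide range of levels. Their mean FPKM at 50 mM ran from 2.09 to 2699.7, with a median of 14.6, against a median of 7.43 over the 50988 genes that passed a filter of FPKM 1 in at least 3 libraries. At 150 mM the median member was at an FPKM of 2.03 and at 300 mM at 2.09, or 2.61 without replicate 1. Relative to its own 50 mM mean, the median member kept 14.4% of its level at 150 mM and 14.9% at 300 mM, or 18.1% without replicate 1. The log2 difference between 150 and 50 mM had a median of -2.38 and quartiles of -2.77 and -2.14, beside a median of 0.02 over all tested genes. Most members thus lay close to the limit of the rule: 174 of 303 (57.4%) fell by less than 2.5 on the log2 scale, 50 fell by at least 3 and 9 by at least 4.

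Few members were silent above 50 mM. All 6 libraries at 150 and 300 mM were below an FPKM of 1 in 59 members, and Gohir.D05G354850.v2.1 was the 1 member with no read in any of them. Reads were present in all 6 libraries for 249 members, or in the 5 without replicate 1 at 300 mM for 267. In 191 members the mean FPKM was at least 1 at both higher concentrations, in 55 at least 10, and in 8 at least 100, and without that replicate in 196, 57 and 9. Both higher concentrations were below 10% of the 50 mM level in 69 members and below 5% in 22, or in 54 and 18 without it. At 300 mM alone 94 members were below 10%, or 67 without replicate 1. The lowest 50 mM library was at least 2 times the highest library above 50 mM in 263 members, and less than 1.5 times in 14. These genes were thus lower above 50 mM, and most still gave reads in every library.

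**Figure D1:**
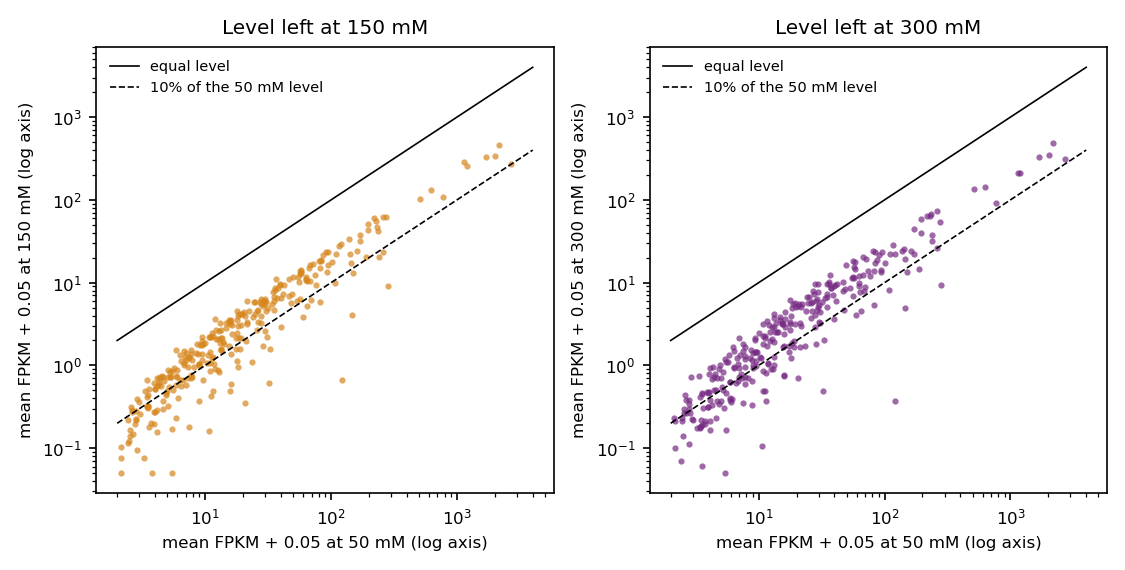
Each point is 1 of the 303 members; the horizontal axis gives its mean FPKM + 0.05 at 50 mM and the vertical axis its mean FPKM + 0.05 at 150 mM (left) or 300 mM (right), all on log axes. The solid line marks equal levels and the dashed line 10% of the 50 mM level. Most points lie above the dashed line, many of those at the lowest 50 mM levels lie below it, and a few lie far below.

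The share of the level that remained differed with the level at 50 mM. In the 59 members at an FPKM of 2 to 5 at 50 mM, a median of 7.84% was left at 150 mM, and in the 120 members at 5 to 20 it was 13.7%. In the 89 members at 20 to 100 it was 18%, and in the 35 members at 100 and over 19.3%. At 300 mM the medians in the same order were 8.2%, 14.6%, 19.2% and 17.7%, and without replicate 1 9.76%, 17%, 23.4% and 21.5%. The 0.5 added before taking logs makes the rule stricter for low genes, which have to lose a larger share of their FPKM to fall by 2 on that scale. This order is therefore in part set by the choice of members.

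The farthest fall on the log2(FPKM + 0.5) scale was that of Gohir.D09G146800.v2.1. Its FPKM in replicates 1, 2 and 3 was 113, 156 and 96.1 at 50 mM, 0.873, 0.937 and 0.052 at 150 mM and 0.152, 0.0517 and 0.759 at 300 mM. The 50 mM libraries held 2098, 2911 and 1752 reads of it, and those at 150 mM 17, 17 and 1, so its transcript went from abundant to a few reads. Gohir.A06G102900.v2.1 came next, with an FPKM of 181, 151 and 107 at 50 mM, 2.99, 7.29 and 1.92 at 150 mM and 1.25, 4.93 and 8.33 at 300 mM, a log2 difference between 150 and 50 mM of -5.15. In this gene replicate 2 at 150 mM and replicate 3 at 300 mM were the highest of their groups, well below every 50 mM library. Gohir.A09G089100.v2.1 stood at 232, 353 and 263 at 50 mM, 9.9, 4.88 and 12.3 at 150 mM and 9.06, 6.62 and 12.3 at 300 mM, a log2 difference of -4.97. It kept a mean FPKM of 9.01 ± 3.77 at 150 mM and 9.32 ± 2.85 at 300 mM (SD, n = 3), so a far fall was not the same as a transcript near 0.

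Gohir.A04G124900.v2.1 and Gohir.A11G064600.v2.1 did come close to 0. Gohir.A04G124900.v2.1 had FPKM values of 29.2, 39.6 and 27.4 at 50 mM, 0.652, 0.559 and 0.462 at 150 mM and 0.0641, 1.11 and 0.128 at 300 mM. Gohir.A11G064600.v2.1 had 21.1, 26.3 and 14.1 at 50 mM, 0.3, 0.161 and 0.455 at 150 mM and 0, 1.66 and 0.295 at 300 mM. At 300 mM both were lowest in replicate 1 and highest in replicate 2, where Gohir.A11G064600.v2.1 had 11 reads and Gohir.A04G124900.v2.1 17. Gohir.A02G046400.v2.1, at 16.4, 17.7 and 13.2 at 50 mM, 0.0826, 0.976 and 0.251 at 150 mM and 0, 1.58 and 0.489 at 300 mM, had the same order at 300 mM. Gohir.D08G220500.v2.1 was uneven in another way. Its FPKM was 41.8, 26 and 18.3 at 50 mM, 0.115, 4.7 and 0.233 at 150 mM and 0, 0.464 and 4.77 at 300 mM, so replicate 2 at 150 mM and replicate 3 at 300 mM carried nearly all of its reads above 50 mM.

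The other members among the 12 with the farthest falls were Gohir.A05G263700.v2.1, Gohir.A05G186600.v2.1, Gohir.A13G232900.v2.1, Gohir.D04G169500.v2.1 and Gohir.A02G033100.v2.1, with log2 differences of -4.03, -4.0, -3.99, -3.98 and -3.86. Gohir.A05G263700.v2.1 had even libraries, with FPKM values of 31.3, 36.7 and 30.1 at 50 mM, 1.17, 1.63 and 1.84 at 150 mM and 1.41, 2.09 and 2.35 at 300 mM. Gohir.A02G033100.v2.1 was abundant and spread above 50 mM, at 221, 355 and 204 at 50 mM, 21.2, 43.6 and 5 at 150 mM and 6.47, 41.5 and 31.1 at 300 mM. Its values at 150 mM covered nearly the same range as those at 300 mM, and its groups above and at 50 mM did not overlap. Gohir.A13G232900.v2.1 kept an FPKM of 1.04 ± 0.442 at 150 mM and 1.66 ± 0.965 at 300 mM (SD, n = 3), from 23.3 ± 4.07 at 50 mM, and Gohir.D04G169500.v2.1 kept 0.539 ± 0.189 and 0.714 ± 0.432 from 15.9 ± 2.79.

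**Figure D2:**
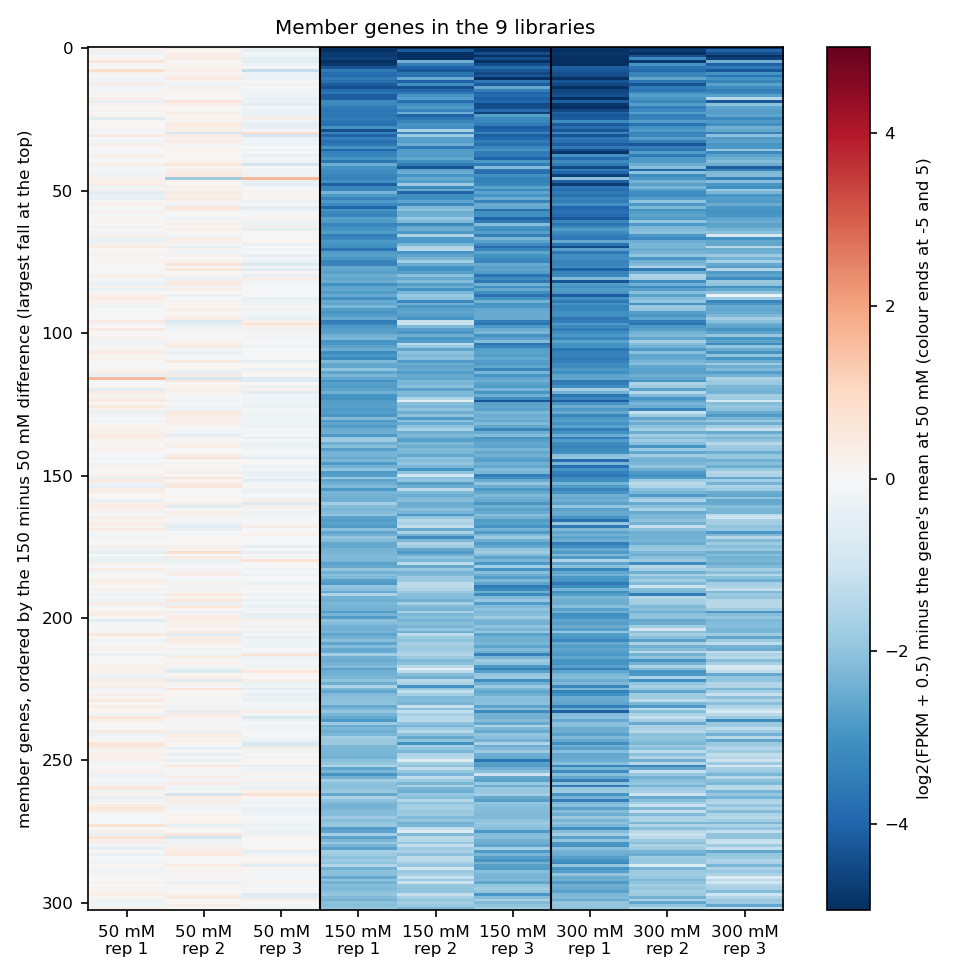
Each row is 1 of the 303 members, ordered from the largest fall at the top to the smallest at the bottom, and each column is 1 library; the colour gives log2(FPKM + 0.5) minus the gene's mean at 50 mM. The 6 columns above 50 mM are blue throughout, with replicate 1 at 300 mM the darkest and replicate 2 at 150 mM and replicate 3 at 300 mM the palest.

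The 8 most abundant members made up most of the summed level. Summed over the 303 members, FPKM in replicates 1, 2 and 3 was 22875, 26574 and 19878 at 50 mM, 3414, 5033 and 3548 at 150 mM and 2609.8, 4171 and 5505 at 300 mM. The mean sum at 50 mM was 5.78 times that at 150 mM and 5.64 times that at 300 mM. As a share of all recovered reads, the members at 50 mM took 1.7% ± 0.21 (SD, n = 3). That share was 0.297% ± 0.06 on 150 mM glucose and 0.325% ± 0.12 on 300 mM. The 8 most abundant members held 53.3% of the summed FPKM at 50 mM and 54.5% and 52.3% at 150 and 300 mM. Of the 200 genes of highest mean FPKM in the whole series, 7 were members.

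Gohir.D12G228800.v2.1 was the most abundant member at 50 mM and alone 11.7% of the sum there. Its FPKM was 2597, 3383 and 2119 at 50 mM, 231, 473 and 107 at 150 mM and 158, 397 and 379 at 300 mM, a log2 difference between 150 and 50 mM of -3.54. The values at 150 and 300 mM overlapped and reached at most 473. Gohir.D11G295000.v2.1 had an FPKM of 1972, 2953 and 1577 at 50 mM, 415, 393 and 568 at 150 mM and 545, 492 and 441 at 300 mM. It was the member of highest mean at both higher concentrations, and there its libraries were close together. Gohir.A10G165300.v2.1, with a coding length of only 159 bases, had 2211, 1856 and 1983 at 50 mM, 276, 427 and 300.3 at 150 mM and 198, 319 and 517 at 300 mM. Gohir.D05G176900.v2.1 had 1745, 2038 and 1288 at 50 mM, 235, 398 and 343 at 150 mM and 158, 231 and 611 at 300 mM. In both, the 300 mM libraries covered a wider range than the 150 mM libraries, with replicate 1 lowest and replicate 3 highest.

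In the next 4 genes by level, replicate 1 was again the lowest and replicate 3 the highest at 300 mM. Gohir.D13G047500.v2.1 stood at 1009, 1571 and 1024 at 50 mM, 272, 282 and 224 at 150 mM and 122, 179.8 and 338 at 300 mM. Gohir.D02G143200.v2.1 had 1151, 1243 and 1040.4 at 50 mM, 187, 490.1 and 189 at 150 mM and 108, 185 and 345 at 300 mM. Gohir.A06G004200.v2.1 had 669, 915 and 724 at 50 mM, 34.4, 246 and 47.8 at 150 mM and 38.7, 106 and 128 at 300 mM. In both Gohir.D02G143200.v2.1 and Gohir.A06G004200.v2.1, replicate 2 at 150 mM was far above the other libraries of that group. Gohir.D13G199300.v2.1 had 624, 680.3 and 569 at 50 mM, 119, 124 and 153 at 150 mM and 98.2, 147 and 181 at 300 mM. All of these 8 genes kept a mean FPKM of at least 90.9 at 150 and 300 mM.

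**Figure D3:**
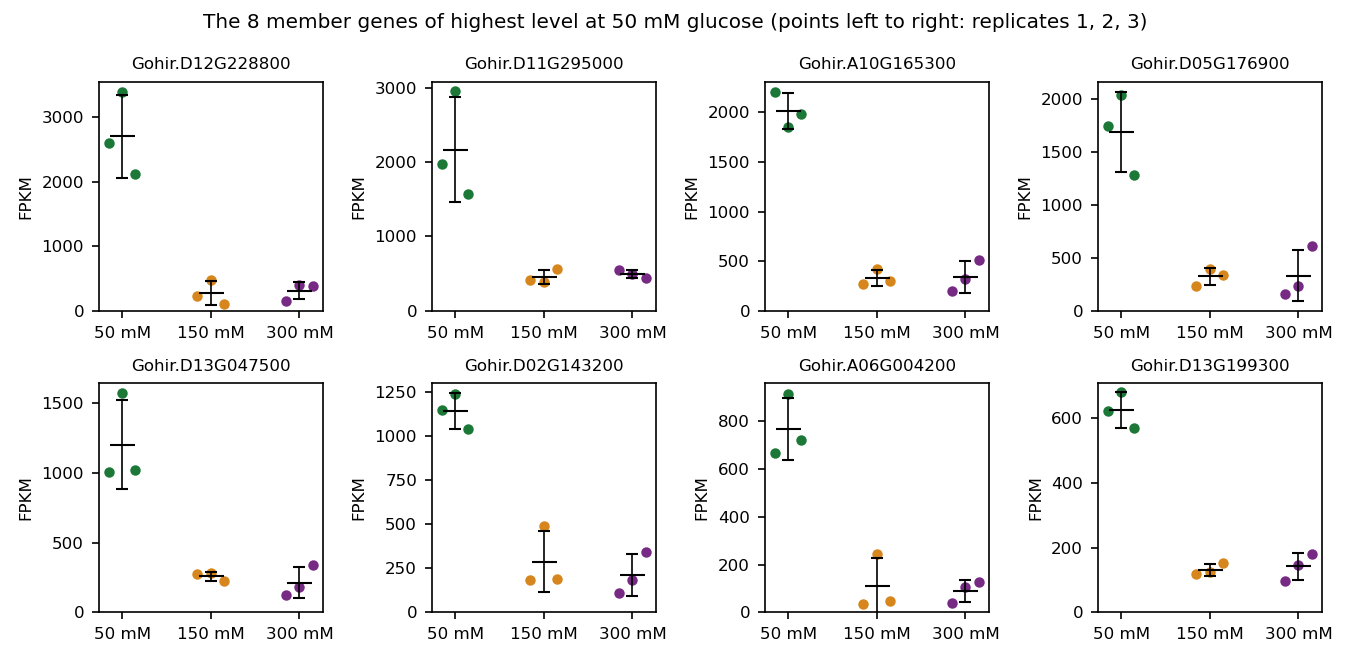
FPKM in every library of the 8 members of highest level at 50 mM; points are libraries (replicates 1, 2 and 3 from left to right) and black bars the mean ± SD of 3 libraries, cut off at 0 for Gohir.A06G004200 at 150 mM. In all 8 panels the 150 and 300 mM points lie below the 50 mM points and overlap each other.

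At the other end, some members rested on few reads. Over the 3 libraries at 50 mM a member had at least 34 reads, with a median of 725. Gohir.D05G354850.v2.1, of 114 bases, is the member with that minimum and had 9, 5 and 20 reads at 50 mM and none above. With a floor of 3 reads over a group, its mean FPKM of 5.36 at 50 mM was at least 11.7-fold higher than at 150 mM and at least 12.1-fold higher than at 300 mM, bounds that cover counting error only. Without replicate 3 at 50 mM they were 7.15-fold and 7.4-fold. Gohir.D05G189500.v2.1 and Gohir.D07G027850.v2.1 had no read at 150 mM, and with the same floor were at least 21.9-fold and at least 12.4-fold higher at 50 mM. Gohir.D05G189500.v2.1 had 3 reads at 300 mM, all in replicate 3, and 50, 6 and 8 reads at 50 mM, so replicate 1 carried most of its 50 mM level, and without that library the bound was 7.21-fold. Gohir.D07G027850.v2.1 had 8, 8 and 20 reads at 50 mM, and without replicate 3 its bound was 8.16-fold.

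The values ran on across each limit of the rule. Gohir.A04G137350.v2.1 and Gohir.D04G143800.v2.1 both had a log2 difference of -2.002 between 150 and 50 mM, while Gohir.D04G086100.v2.1 and Gohir.A12G238400.v2.1, outside, had -1.999. For the 300 minus 150 mM difference, Gohir.A06G004300.v2.1 and Gohir.D09G055100.v2.1 were inside at 0.498 and 0.496, and Gohir.D02G046800.v2.1 and Gohir.D01G191900.v2.1 outside at 0.501 and 0.503. For the level at 50 mM, Gohir.D03G143900.v2.1 and Gohir.D11G068900.v2.1 were inside at a mean FPKM of 2.09 and 2.1, and Gohir.D13G151700.v2.1 and Gohir.D05G236600.v2.1 outside at 1.95 and 1.94.

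The flat course above 50 mM was 1 of several courses among genes with the same fall. The fall and the level were met by 657 Gohir genes, and the groups were also separated in 563. Of these, 303 (53.8%) stayed within 0.5 and are the members, 186 were higher again at 300 mM by 0.5 or more, and 74 were lower still by 0.5 or more. The genes that came back up had a median FPKM of 19.8 at 50 mM, 2.44 at 150 mM and 5.22 at 300 mM, and those that fell further 23.1, 3.3 and 1.6. Without replicate 1 at 300 mM, 234 of the same 563 genes stayed within 0.5, 281 were higher again and 48 lower still, and the median FPKM at 300 mM was 6.4 in the 281 and 1.28 in the 48. Of the 74 genes lower still with all libraries, 47 were so without it. Among the members the 300 minus 150 mM difference was above 0 in 165, below 0 in 137 and 0 in Gohir.D05G354850.v2.1, and within 0.25 in 160. Without replicate 1 it was above 0 in 240, below 0 in 62 and within 0.25 in 116. The distribution ran on past both limits.

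Whether a gene met the rule depended on single libraries. Of the 303 members, 212 still met it without replicate 3 at 150 mM, 227 without replicate 2 at 150 mM and 241 without replicate 3 at 300 mM. The fewest, 204, were left without replicate 1 at 300 mM. Without that library, 98 of the 303 members were higher at 300 than at 150 mM by 0.5 or more, 1 was lower by as much and 204 stayed within 0.5, and the median difference moved from 0.03 to 0.31. With that library alone, 148 were lower by 0.5 or more, 4 were higher by as much and 151 stayed within 0.5, with a median of -0.48. The median share of the 50 mM level left at 300 mM was 7.7% in replicate 1, against 18.1% in the mean of replicates 2 and 3. Summed FPKM at 50 mM was 8.85 times that of replicate 1 at 300 mM and 4.78 times the mean of the other 300 mM libraries. The rule placed every 300 mM library below every 50 mM library, so a drop from 50 mM with or without replicate 1 is no finding. In 248 of the 303 members replicate 1 was the lowest of the 300 mM libraries.

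**Figure D4:**
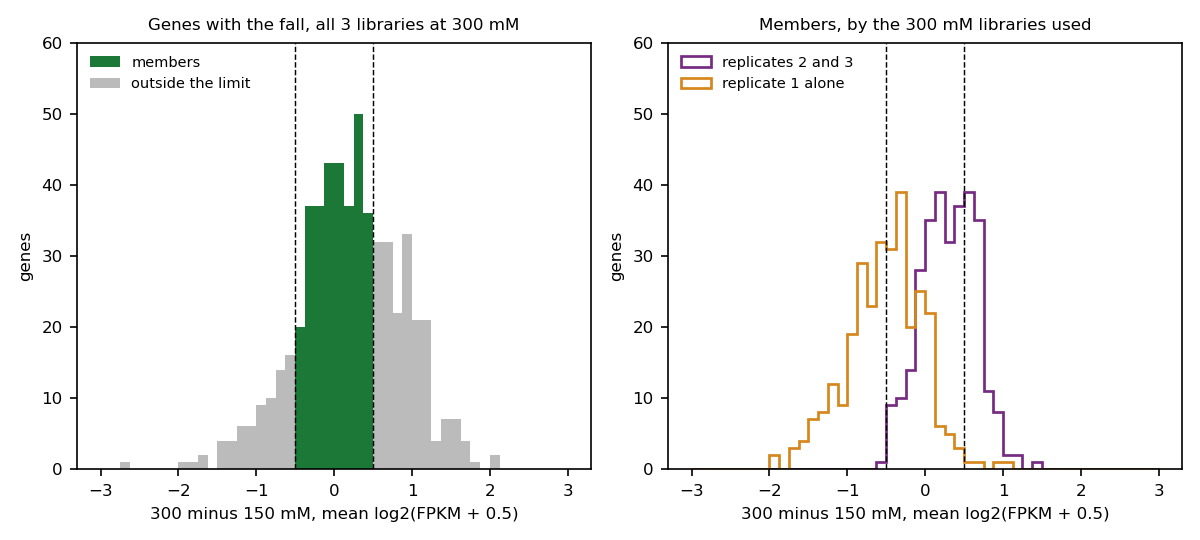
Left, the number of genes by their 300 minus 150 mM difference in mean log2(FPKM + 0.5), for the 563 genes with the same fall and separated groups; members are green and the others grey. Right, the same difference in the 303 members when the 300 mM mean is taken from replicates 2 and 3 (purple) or from replicate 1 alone (orange); the dashed lines mark the limits of -0.5 and 0.5, and the curves are shifted to either side of 0.

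Within each concentration most members had the same library lowest or highest. The rule used the means of these libraries, so this is a description of the chosen genes. At 300 mM replicate 1 was the lowest of its group in 248 of the 303 members (81.8%), against 33.4% of all tested genes. Its median deviation from the gene's group mean was -0.52 on the log2 scale in members and 0.01 over all tested genes. Replicate 3 was the highest in 179 members (59.1%), against 34.0% of tested genes. At 150 mM replicate 2 was highest in 179 members (59.1% against 34.5%), with a median deviation of 0.25. At 50 mM replicate 3 was lowest in 163 members (53.8% against 32.7%), with a median deviation of -0.15. The same library was thus lowest or highest in at least 163 members at each concentration, and the median shift was widest at 300 mM. Each of these is 1 library, so no test of it was made, and members are not independent of each other.

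The same order of libraries was also seen in other genes that fell. Replicate 1 at 300 mM was lowest in 63.0% of the 6779 genes called lower at 150 than at 50 mM, in 92.5% of the 186 genes with the same fall that came back up and in 68.9% of the 74 that fell further, both drawn with that library included. Replicate 1 lowest at 300 mM together with replicate 2 highest at 150 mM was seen in 150 members (49.5%). That joint order was seen in 58.6% of the genes that came back up, in 36.5% of those that fell further, in 30.3% of all genes called lower at 150 mM and in 14.2% of all tested genes. The median SD of log2(FPKM + 0.5) among the 3 libraries was 0.28 in members and 0.16 in all tested genes at 50 mM, 0.39 and 0.17 at 150 mM, and 0.56 and 0.22 at 300 mM. The 2 sets were not matched for level, and the median member was at an FPKM of 2.03 at 150 mM and 2.09 at 300 mM. How much of the wider spread there comes from low read counts was not tested.

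**Figure D5:**
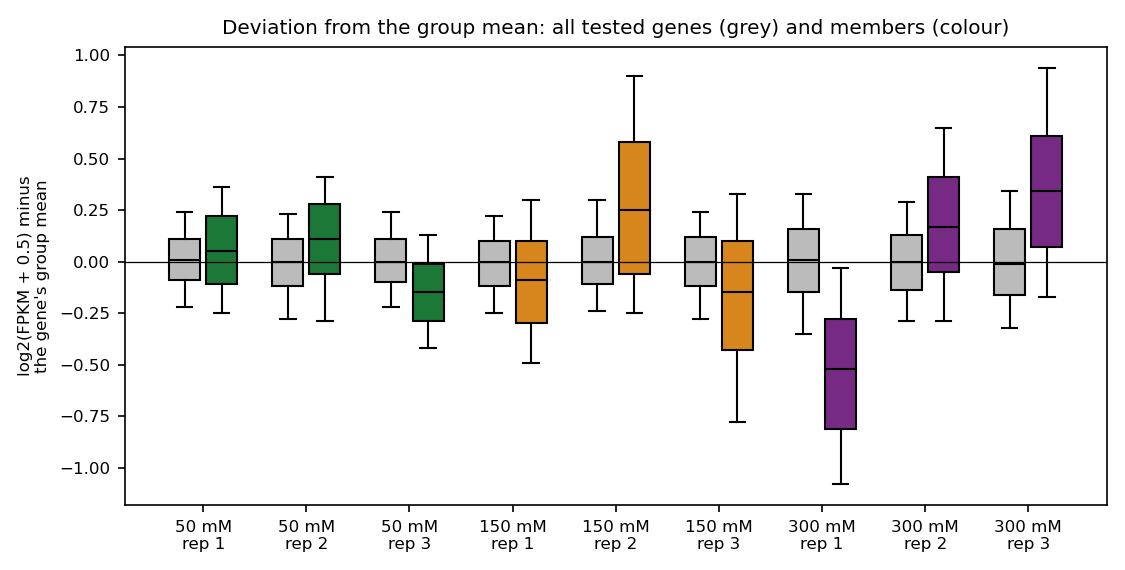
For each library, boxes show log2(FPKM + 0.5) minus the gene's group mean over all tested genes (grey) and over the 303 members (colour), with the median, the quartiles and whiskers at the 10th and 90th percentiles. Grey boxes are centred near 0, while the members' box is lowest for replicate 1 at 300 mM and highest for replicate 3 at 300 mM and replicate 2 at 150 mM.

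A few members ran against that order. Replicate 2 was lowest at 150 mM and replicate 1 highest at 300 mM in 4 members, Gohir.D11G295000.v2.1, Gohir.D01G058300.v2.1, Gohir.A11G294400.v2.1 and Gohir.A05G339200.v2.1, named after their values were seen. Gohir.D01G058300.v2.1 had an FPKM of 32.8, 16.3 and 29.9 at 50 mM, 5.23, 4.19 and 4.37 at 150 mM and 6.21, 5.6 and 5.4 at 300 mM. In all, replicate 1 was highest at 300 mM in 10 members. Of these, Gohir.D11G303800.v2.1, Gohir.D13G061150.v2.1, Gohir.D07G027850.v2.1 and Gohir.A13G147200.v2.1 had the largest excess over the mean of replicates 2 and 3. Gohir.D11G303800.v2.1, Gohir.D13G061150.v2.1 and Gohir.D07G027850.v2.1 had 4, 4 and 2 reads in that library, so their excess is within a few reads. Gohir.A13G147200.v2.1 had 29, 15 and 23 reads in the 300 mM libraries.

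At 50 mM the rule limited the mean FPKM, the mean log2 value relative to 150 mM and the lowest library. It set no direct limit on the spread, and members ranged from nearly identical 50 mM libraries to very uneven ones. The SD of log2(FPKM + 0.5) over the 3 libraries ran from 0.0118 to 1.75, with a median of 0.28. Gohir.A01G231300.v2.1 was the steadiest, with an FPKM of 63.2, 63.2 and 62.3 at 50 mM, 12.5, 13.7 and 8.91 at 150 mM and 3.9, 11.7 and 11.5 at 300 mM, and Gohir.A11G328000.v2.1 followed with 40.6, 41.5 and 41.5 at 50 mM, 7.51, 7.94 and 6.51 at 150 mM and 4.43, 6.37 and 7.18 at 300 mM. Gohir.A10G015900.v2.1 and Gohir.A05G339200.v2.1 had SDs of 0.02 and 0.03. In these 4 genes the 50 mM libraries lay close together and far above all others. Gohir.D11G303800.v2.1 was the least steady, with an FPKM of 5.42, 0.962 and 15.9 at 50 mM, 0, 0.395 and 0 at 150 mM and 0.725, 0.185 and 0 at 300 mM. Its lowest 50 mM library, at 0.962, was close to replicate 1 at 300 mM, at 0.725. Gohir.D05G189500.v2.1, Gohir.A05G186600.v2.1 and Gohir.D05G354850.v2.1 followed, with SDs of 1.41, 1.06 and 0.92, and Gohir.A05G186600.v2.1 had 97, 66 and 21 reads at 50 mM.

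Members were found on all 26 numbered chromosomes. Upland cotton is a polyploid whose subgenomes, A and D, descend from separate species. The A subgenome held 154 members (0.668% of its 23051 tested genes), and the D subgenome held 148, of which 147 were tested (0.617% of 23811). The remaining member has an ID that names no A or D chromosome. By chromosome the share ran from 0.252% on A03 (4 members) to 1.01% on A02 (13 members), around 0.643% over all tested Gohir genes. Chromosome A05 had 23 members and D05 18, or 0.78% and 0.66% of their tested genes. D02 had 8 members, A02 13 and A03 4. The sources used here do not say how reads shared by near-identical A and D copies were counted, so the values of such pairs are uncertain.

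Some members were next to each other in ID order, which by the naming follows the chromosome. There were 12 runs, all of 2 members, 24 members in total. Only members were counted, so the limit on the 300 minus 150 mM difference can cut a run. Gohir.D02G143300.v2.1 and Gohir.A02G033200.v2.1, next in number to the members Gohir.D02G143200.v2.1 and Gohir.A02G033100.v2.1, had the same fall and separated groups. They were left out because they were higher again at 300 mM, by 1.742 and 1.381. Members made up 0.402% of all Gohir IDs, and how many runs that share would give by itself was not tested. In the run of highest level, Gohir.A06G004200.v2.1, given above, lay beside Gohir.A06G004300.v2.1, whose FPKM was 71.3, 76.8 and 60.7 at 50 mM, 5, 6.58 and 6.7 at 150 mM and 7.3, 9.74 and 9.38 at 300 mM. The coding lengths of the pair were 309 and 315 bases. Gohir.A06G004200.v2.1 was highest in replicate 2 at 150 mM and Gohir.A06G004300.v2.1 was not, so the neighbours differed in how their libraries ran. Gohir.A10G170400.v2.1, at 90.2, 59.5 and 54.4 at 50 mM, 9.45, 9.81 and 11.6 at 150 mM and 5.43, 9.79 and 8.08 at 300 mM, lay beside Gohir.A10G170500.v2.1, at 246, 172 and 236 at 50 mM, 41.7, 102 and 35.4 at 150 mM and 29.8, 52.6 and 109.6 at 300 mM. The log2 differences between 150 and 50 mM were -2.64 and -2.01.

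Gohir.D11G115000.v2.1 and Gohir.D11G115100.v2.1 made up the next run by level, with log2 differences of -2.79 and -2.54. Gohir.D03G027250.v2.1 and Gohir.D03G027300.v2.1 made up the run after that. Gohir.D03G027250.v2.1 had an FPKM of 22.1, 17 and 14.1 at 50 mM, 1.96, 6.56 and 1.92 at 150 mM and 1.3, 3.77 and 4.71 at 300 mM. Gohir.D03G027300.v2.1 had 63.6, 63.6 and 44 at 50 mM, 7.52, 22.2 and 8.65 at 150 mM and 4.48, 11.9 and 17.5 at 300 mM. Both were highest in replicate 2 at 150 mM and lowest in replicate 1 at 300 mM. Whether neighbouring members are near-identical copies that share reads was not tested.

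The IDs next to members, and not members themselves, numbered 577. Of these, 375 were among the tested genes, with a median log2 difference of -0.13, against 0.03 over all tested Gohir genes. Of the 375, 54 (14.4%) fell by at least 1 on the log2 scale and 24 (6.4%) rose by at least 1, against 6.22% and 7.68% of all tested Gohir genes. These shares are a description, with no test.

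Each member was also set against the ID of the same number on the other subgenome's chromosome of the same number. In 1 case both IDs were members. Gohir.A09G089100.v2.1 is given above, and Gohir.D09G089100.v2.1 had an FPKM of 5.41, 10 and 11.1 at 50 mM, 0.286, 0.204 and 0.482 at 150 mM and 0, 0.383 and 0.469 at 300 mM, far lower at every concentration. Their coding lengths were 1755 and 534 bases, so the same number does not make them copies of each other. In 226 cases the ID of the same number was not a member. Members were 0.402% of all Gohir IDs, so few shared cases would be met among unrelated IDs too, and nothing is read from these counts. Gohir.A11G295000.v2.1, the counterpart in number of Gohir.D11G295000.v2.1, had an FPKM of 11.4, 3.86 and 9.23 at 50 mM, 25.4, 39.8 and 26.1 at 150 mM and 4.87, 2.12 and 4.15 at 300 mM, a course highest at 150 mM, and a length of 894 bases against 201. Gohir.A05G176900.v2.1, the counterpart in number of Gohir.D05G176900.v2.1, had 38.6, 42.9 and 31.8 at 50 mM, 19.7, 20.7 and 20.8 at 150 mM and 20.5, 20.3 and 23.5 at 300 mM. The counterparts of Gohir.A10G165300.v2.1 and Gohir.D13G047500.v2.1 had mean FPKM values of 0.128 and 1.98 at 50 mM.

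The median coding length of the members lay below that of the tested genes. It was, as recovered from the values, 882 bases with quartiles of 530 and 1348, against 1059 with quartiles of 606 and 1635 over all tested Gohir genes. The range was 114 to 3309 bases, and 299 of the 303 lengths were divisible by 3. Among genes with the same fall the median was 826 bases in those that came back up and 790 in those that fell further.

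In a limma fit to all tested genes, 299 of the 302 members that passed the filter were called lower at 150 than at 50 mM, where 13.3% of the 50988 tested genes were called lower. At 300 against 50 mM it was also 299 of 302, where 16.3% were called lower. The rule used these contrasts, and both share the 50 mM libraries, so nothing is read from these counts. Gohir.D11G303800.v2.1 did not pass the filter. Gohir.D03G172800.v2.1, Gohir.A01G104400.v2.1 and Gohir.A11G168600.v2.1 were not called at 150 mM, with limma adjusted p-values of 0.0567, 0.0725 and 0.0552. At 300 mM Gohir.D05G356700.v2.1, Gohir.A01G104400.v2.1 and Gohir.A11G168600.v2.1 were not called, with 0.0504, 0.065 and 0.0518. These genes were named after their values were seen.

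Outside the Gohir naming, 4 numbered loci met every other part of the rule. Their mean FPKM at 50 mM was 5.26, 5.45, 3.4 and 2.97. The locus of highest level had values of 5.58, 6.76 and 4.01 at 50 mM, 0.307, 0.692 and 0.0428 at 150 mM and 0.146, 0.649 and 0.854 at 300 mM. Like many members it was highest in replicate 2 at 150 mM and lowest in replicate 1 at 300 mM.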

How the data were processed

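The values the authors deposited are FPKM (read counts divided by gene length and a library-size term), 80970 rows per library, as the values show; HISAT2 and featureCounts 1.5.0-p3 are named in the submitters' processing notes. The sources used here do not state the genome build, annotation, strand setting or library-size term. Between libraries, the values of a gene had whole-number ratios after a factor per library. From these, reads and lengths were recovered for all 68279 rows above 0 (tolerance 0.001), and the recovery was tested on simulated data. The shortest length that gave whole reads was taken. In rows of few reads the true length and reads may therefore be a multiple of those given. The simulation started from these lengths and cannot show this. In a gene of 1000 bases 1 read is an FPKM of 0.05 to 0.0545. Reads cover counting error only.

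Libraries were grouped by the glucose concentration in their labels. Members were found by the rule at the head of the report, on log2(FPKM + 0.5). The members, the rule and the gene choices were made with earlier results of these data known. Genes reaching an FPKM of 1 in 3 or more libraries were tested, and their log2(FPKM + 0.5) was fitted with limma 3.58.1 (trend, robust, R 4.3.3), all 9 libraries, concentration as the only term, two-sided, Benjamini-Hochberg over all tested genes, threshold 0.05. The fit was tested on simulated data.

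The text names the 12 members with the farthest fall, the 8 most abundant at 50 mM, the 2 nearest each limit on either side, the 4 runs of neighbours of highest level, pairs of the same number on A and D chromosomes (up to 6 with both as members, up to 4 with 1), members without reads above 50 mM, the 4 highest in replicate 1 at 300 mM relative to its group, and the 4 steadiest and 4 least steady at 50 mM. The fold changes on the log2(FPKM + 0.5) scale understate the change of genes near 0. Alternatives covered the pseudocount, the filter, the scaling, each limit of the rule, a replicate block, limma-voom on recovered reads and each library left out in turn.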

Additional observations from a re-analysis of the deposited data

How the results depend on the processing

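The number of members followed the limits of the rule: 648 genes with a fall of at least 1.5 and 50 with a fall of at least 3, 160 with a 300 minus 150 mM difference under 0.25 and 471 under 1. Other pseudocounts, scalings, levels at 50 mM and dropping the condition on overlap gave 232 to 319. A pseudocount of 0.1 also gave 303 genes, but only 236 of them were the same, and the median log2 difference between 150 and 50 mM was then -2.83. Without single libraries, each left out in turn, there were 234 to 349 members, of which 204 to 288 were among the 303; the fewest shared, 204, were left without replicate 1 at 300 mM. The median difference between 150 and 50 mM was -2.33 to -2.54 and the ratio of summed FPKM 5.35 to 6.64 without single libraries at 50 or 150 mM (the 300 mM libraries do not enter these values). Under other filters, scalings, pseudocounts, thresholds and fits 276 to 301 members were called lower at 150 mM and 279 to 301 at 300 mM. The counts were 232 to 302 at 150 mM and 228 to 301 at 300 mM without single libraries. The low ends come from leaving out a 50 mM library, where 244 members pass the filter. Same-numbered libraries did not deviate together (correlations of -0.27 to 0.10 across genes, and the same number highest in 4 of 18 comparisons), and with the replicate block 296 and 297 members were called, against 299 and 299. Of the 49 named members, 6 were named after their values were seen. Their single differences were rerun with other pseudocounts, with median-ratio and upper-quartile scaling, and without single libraries at 50 or 150 mM. No difference changed direction, but the fall and the separation asked by the rule fix that in advance, so nothing is read from it. Of 490 values, 28 moved by more than the spread between libraries, each with another pseudocount.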
